A study of Homo sapiens with 100 samples.

Results

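Zelebrudomide was set against pomalidomide in wild-type clones of TMD8, an established human line from a large-cell lymphoma of activated B cell type (ABC). The comparison holds 10 of the 100 libraries of the series: 5 wild-type single-cell clones given zelebrudomide and the same 5 clones given pomalidomide, chosen by the treatment and clone number in the labels and paired by clone. All were harvested after 24 h. No dose is given in the sources used here, so that the 2 compounds cannot be said to have been compared at matched doses. Beside them stand the same 5 clones under bexobrutideg and under the solvent DMSO, which share no library with the 10, and 6 clones labelled A428D under zelebrudomide, pomalidomide, bexobrutideg and DMSO. The culture and design texts place A428D at the endogenous BTK locus, while the sample titles attach it to SF3B1, and transcript counts cannot check the base change. Each replicate is a single-cell clone of 1 line, so that the spread is that between clones of 1 tumour.

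BTK is the kinase that carries signals from the B cell receptor to NF-kB, calcium and ERK pathways, and lymphomas of the activated B cell type depend on this route for survival. Cereblon is the substrate receptor of a ubiquitin ligase: pomalidomide binds it and makes it take up IKZF1 and IKZF3, transcription factors of lymphocytes that are then degraded. Zelebrudomide joins a BTK ligand to a cereblon ligand and degrades BTK as well as IKZF1 and IKZF3, whereas bexobrutideg is a BTK degrader reported to spare both factors. Zelebrudomide against pomalidomide therefore sets a compound with both activities beside one without a BTK ligand. Bexobrutideg against DMSO gives the BTK activity in other cultures of the same clones.

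Poly(A) RNA was read at transcript 3′ ends. The libraries held 6006511 to 7817448 counted reads under zelebrudomide and 6437829 to 7961694 under pomalidomide. Mitochondrially encoded genes took 8.73% to 10.5% and 8.13% to 8.98% of them, and 8 of 13 such genes were higher with zelebrudomide and none lower (median log2 fold change 0.13; 2 were called without the clone block and none in a fit of 88 libraries). Defining B lineage markers were present, with a summed level of 10200 to 10900 CPM (counts scaled to library size, for these marker sums to library totals) under zelebrudomide and 8440 to 9410 CPM under pomalidomide over 12 genes. Markers of T and NK cells summed to 5.99 to 9.39 and 7.15 to 11.4 CPM (11 of 12 detected, CD3E at 0). Those of myeloid cells summed to 23.6 to 34.4 and 32.8 to 42.5 CPM (7 of 10 detected, CD163, FCGR3A and S100A8 at 0). Those of fibroblasts and endothelium summed to 18.5 to 25.5 and 17.9 to 39.4 CPM (9 of 10 detected, VWF at 0).

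Over all genes, 3982 of 13981 passed the test (28.5%), 1911 higher with zelebrudomide (13.7%) and 2071 lower (14.8%). A gene is called here when edgeR's quasi-likelihood test with the clone as a block gives an adjusted p under 0.05 (Benjamini-Hochberg over all genes tested), and every adjusted p below is from that test. Changes are log2 fold changes ± standard error (SE), zelebrudomide over pomalidomide, with 5 clones in each group. Where no other comparison is named, rose, fell, higher and lower take pomalidomide as the reference, not DMSO. At least 2-fold changes were fewer, with 132 genes higher (0.944%) and 190 lower (1.36%). Without the clone block 2412 genes were called, 1083 higher and 1329 lower. On library totals with no further scaling the split was 1300 higher and 2853 lower.

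BTK transcript was slightly higher with zelebrudomide, IKZF1 was lower, and IRF4, MYC and NFKBIA were lower by larger amounts. BTK (ENSG00000010671, GRCh38 chromosome X, 101349447 to 101390796) stood at 76.6, 79.8, 72.8, 80.7 and 80.1 CPM in clones 1 to 5 under zelebrudomide, against 68.9, 69.1, 75.1, 69.1 and 71.8 CPM under pomalidomide. It was higher in 4 of 5 clones and the groups overlapped. The change was 0.14 ± 0.05 (adjusted p = 0.0363), and the call ended without the block (adjusted p = 0.119), in DESeq2 (adjusted p = 0.0858) and without any of clones 1, 2, 4 and 5 (adjusted p = 0.0719 to 0.14). The degraders remove protein, so the transcript does not check BTK loss. IKZF3 (-0.01 ± 0.05, adjusted p = 0.866) and CRBN, the gene of cereblon (0.13 ± 0.09, adjusted p = 0.341), did not pass.

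IKZF1 (ENSG00000185811, chromosome 7, 50304068 to 50405101) had 324, 303, 302, 281 and 297 CPM under zelebrudomide, against 412, 378, 331, 377 and 385 CPM under pomalidomide. Every zelebrudomide library lay below every pomalidomide library. The difference was -0.32 ± 0.04 (adjusted p = 8.12e-08). Both groups lay above the 180 to 202 CPM of the bexobrutideg and the 186 to 206 CPM of the DMSO libraries.

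IRF4 (ENSG00000137265, chromosome 6, 391739 to 411447), a transcription factor on which these lymphomas depend, had 190, 188, 213, 198 and 192 CPM under zelebrudomide, against 321, 362, 374, 340 and 362 CPM under pomalidomide. The groups were far apart, with a change of -0.84 ± 0.04 (adjusted p = 8.17e-21). The bexobrutideg libraries, at 213 to 233 CPM, and the DMSO libraries, at 408 to 477 CPM, did not overlap either (adjusted p = 4.76e-23 for bexobrutideg over DMSO). MYC (chromosome 8, 127735434 to 127741434), the growth-driving transcription factor, had 58.6, 75.8, 81.7, 54.5 and 67.4 CPM under zelebrudomide, against 114, 148, 140, 110 and 145 CPM under pomalidomide. It fell in 5 of 5 clones by a log2 change of -0.96 ± 0.05 (adjusted p = 1.29e-19), against -0.49 ± 0.05 for bexobrutideg over DMSO. The difference between those 2 changes was itself past the test (-0.47 ± 0.07, adjusted p = 7.56e-06).

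The survival gene BCL2 gave -0.29 ± 0.07 (adjusted p = 0.00108) with overlapping groups, 30.9 to 47.8 CPM under zelebrudomide and 41 to 59.3 CPM under pomalidomide. That call ended without the clone block (adjusted p = 0.134). MCL1, another survival gene, stood at 208 to 245 CPM and 192 to 228 CPM (0.08 ± 0.04, adjusted p = 0.155), and passed without clone 5 (0.13, adjusted p = 0.0435).

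**Figure D1:**
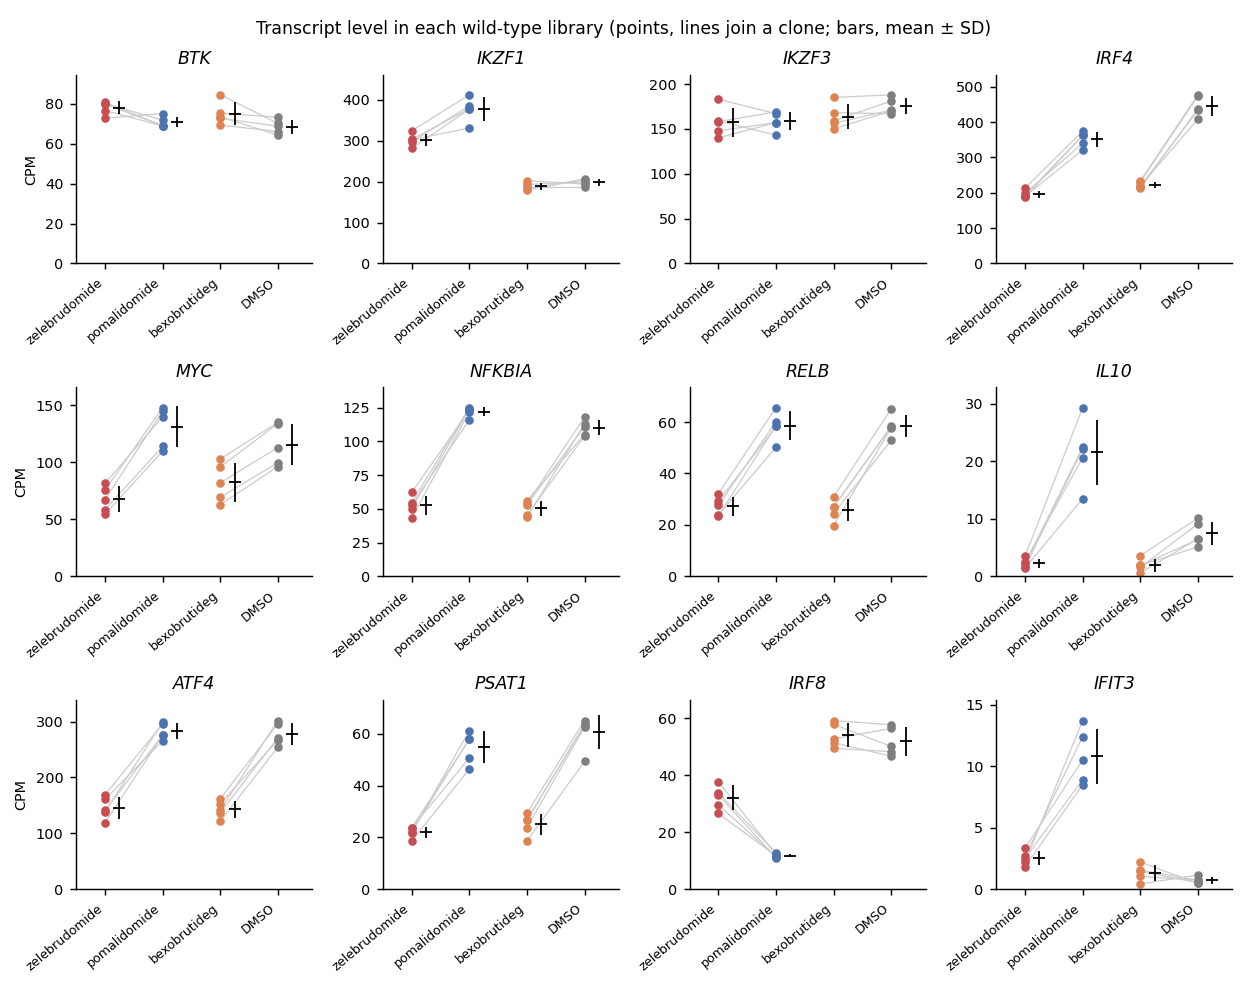
Transcript level in CPM (vertical axes, linear from 0) of 12 genes in each wild-type library, by treatment; grey lines join libraries of the same clone and black bars give mean ± SD (n = 5). IRF4, MYC, NFKBIA, RELB, ATF4 and PSAT1 lay lower under zelebrudomide than under pomalidomide, and lower in mean under bexobrutideg than under DMSO, whereas for IRF8 and IFIT3 the bexobrutideg and DMSO libraries overlapped.

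Genes of the NF-kB pathway were lower with zelebrudomide. NF-kB dimers are held in the cytoplasm by inhibitors such as NFKBIA and induce the genes of those same inhibitors, so that inhibitor transcripts read the activity of the pathway. Of 5 subunit genes 4 fell and none rose (median -0.36, against 0.01 over all genes tested). RELB, the subunit of the alternative pathway, had 32.2, 23.9, 23.5, 29.2 and 27.6 CPM under zelebrudomide, against 65.6, 50.2, 58.6, 58.3 and 60.2 CPM under pomalidomide (-1.10 ± 0.06, adjusted p = 3.37e-18). NFKB2, its partner, changed by -1.01 ± 0.11. NFKB1 and REL, subunits of the classical pathway, changed by -0.36 ± 0.07 and -0.31 ± 0.07. Of 16 inhibitor and feedback genes 8 fell and none rose (median -0.23).

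NFKBIA (ENSG00000100906, chromosome 14, 35401511 to 35404749), the classical inhibitor, had 54.5, 43.3, 53, 62.2 and 50.2 CPM under zelebrudomide, against 125, 122, 116, 123 and 124 CPM under pomalidomide. The groups did not overlap and the change was -1.21 ± 0.06 (adjusted p = 2.54e-20). NFKBID, a nuclear member of the inhibitor family, changed by -1.34 ± 0.09, TNFAIP3, a deubiquitinase that dampens the pathway, by -0.98 ± 0.08 and TNIP1, its binding partner, by -0.59 ± 0.05. The 250 bases before the NFKBIA start (RefSeq, GRCh38.p14, chr14:35404750-35404999, minus strand) are shown because the gene is the standard readout of the pathway and holds 1 match to the kappaB consensus, in capitals, 81 to 72 bases before the start:
NFKBIA promoter: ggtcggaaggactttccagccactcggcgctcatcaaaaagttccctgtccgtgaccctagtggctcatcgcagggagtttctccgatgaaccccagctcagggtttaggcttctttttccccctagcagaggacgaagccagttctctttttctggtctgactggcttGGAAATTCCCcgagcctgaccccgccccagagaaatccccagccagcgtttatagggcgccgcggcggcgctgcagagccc

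Single sites in 30 bases of the promoters of 3 other genes that fell show the same consensus in capitals (the LTA stretch holds 2 overlapping matches). These are LTA at chr6:31572176-31572205 (plus strand), BIRC3 at chr11:102317339-102317368 (plus strand) and NFKBID at chr19:35900613-35900642 (minus strand), all RefSeq on GRCh38.p14.
LTA: ctaagccctGGGGGCTTCCCcgggccccag
BIRC3: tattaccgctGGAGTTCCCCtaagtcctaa
NFKBID: agcgcgacccGGGGACTCCCaggcctgtgg

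The consensus, searched on both strands of the 250 bases before each start, was present for 8 of 15 inhibitor and feedback genes with a window, 3 of 4 subunit genes, 11 of 27 target genes and 8 of 12 cytokine genes. It was present in 9.96% of all 35116 windows of that length and for 15% of the 9591 tested genes with a window. A match is a run of letters and does not show binding. Of the 162 genes named by rule, 122 had a RefSeq window.

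Of 30 NF-kB target genes 20 fell and 3 rose (median -0.36). PLEK, a substrate of protein kinase C, had a change of -1.19 ± 0.06, LTA, the cytokine lymphotoxin alpha, of -1.34 ± 0.07 and BIRC3, an inhibitor of apoptosis, of -1.07 ± 0.07. The 3 that rose, named after their values were seen, were PTPN1 (0.22), LTB (0.40) and TNFRSF13B (0.91). Among 20 cytokine and chemokine genes 16 were expressed enough to be tested, and 12 of them fell and 2 rose (median -1.07).

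IL10, an autocrine growth factor of activated B cell type lymphoma, had 2.19, 3.51, 2.54, 1.44 and 1.6 CPM under zelebrudomide, against 22.4, 29.3, 20.6, 13.5 and 22.1 CPM under pomalidomide (-3.24 ± 0.15, adjusted p = 5.16e-22). Each clone's value under pomalidomide was also above the 5.11 to 10.1 CPM of the DMSO libraries, while the zelebrudomide libraries lay below them. TNF, the inflammatory cytokine, had 11 to 19.6 CPM under zelebrudomide and 64.6 to 84.9 CPM under pomalidomide (-2.22 ± 0.12), with 19.1 to 39.2 CPM under DMSO. IL6 changed by -2.18 ± 0.25. The chemokine genes CCL4 (-3.81 ± 0.17) and CCL4L2 (-3.72 ± 0.13) showed the largest decreases in the comparison among genes named by size, but they are near-identical copies whose reads may be shared.

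Many readouts of STAT3 and ERK were also lower than with pomalidomide. Of 18 genes of the STAT3 axis 9 fell and 4 rose (median -0.22). BATF, an AP-1 family factor of activated lymphocytes, had 65.7, 71, 78.4, 62.9 and 69.4 CPM under zelebrudomide, against 147, 196, 203, 148 and 192 CPM under pomalidomide, with no overlap (-1.34 ± 0.05, adjusted p = 4.08e-25). BATF3 changed by -1.86 ± 0.13, the receptor gene IL21R by -0.55 ± 0.05 and the feedback inhibitor SOCS3 by -0.38 ± 0.05. Against DMSO, zelebrudomide raised SOCS3 (0.40 ± 0.05) and IL21R (0.31 ± 0.06) and lowered BATF (-0.69 ± 0.05), while BATF3 was not called (-0.37 ± 0.15). Of the 18 genes, bexobrutideg raised 2 and lowered 6 against DMSO (median -0.02), beside 10% and 10.4% of all genes. Zelebrudomide raised 5 and lowered 7 (median -0.07), beside 12.9% and 13.3%. Of 26 ERK feedback and immediate early genes 14 fell and 2 rose (median -0.43). EGR1, an early growth response factor, changed by -1.84 ± 0.19, the phosphatase gene DUSP2 by -1.08 ± 0.10, the RNA-binding factor ZFP36L1 by -0.93 ± 0.06 and JUNB by -0.67 ± 0.06.

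Genes of the integrated stress response, in which the factor ATF4 raises amino acid synthesis, uptake and tRNA charging, were lower almost throughout. Of 20 tested members 18 fell and 1 rose (median -0.85). ATF4 (ENSG00000128272) had 161, 139, 119, 169 and 141 CPM under zelebrudomide, against 266, 299, 276, 296 and 276 CPM under pomalidomide. The change of -0.96 ± 0.05 (adjusted p = 9.78e-20) was matched by -0.96 ± 0.05 for bexobrutideg over DMSO. The pseudokinase TRIB3 changed by -1.52 ± 0.10, the mTOR inhibitor DDIT4 by -0.85 ± 0.05 and CEBPG, a dimer partner of ATF4, by -0.84 ± 0.07.

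Enzymes of serine and one-carbon metabolism fell for 11 of 15 and rose for none (median -0.50). PSAT1, an aminotransferase of serine synthesis, had 18.7, 21.8, 23.7, 23.6 and 22.1 CPM under zelebrudomide, against 46.3, 61.2, 57.8, 50.7 and 58.1 CPM under pomalidomide (-1.32 ± 0.07, adjusted p = 2.54e-20). PHGDH, which opens that pathway, changed by -1.18 ± 0.09, and the mitochondrial folate enzymes MTHFD2 and SHMT2 by -0.59 ± 0.05 and -0.56 ± 0.05. Of 18 amino acid transporters 11 fell and 2 rose (median -0.35). The glutamine carrier SLC1A5 changed by -1.01 ± 0.05, the cationic amino acid carrier SLC7A1 by -1.43 ± 0.09 and SLC38A1 by -0.69 ± 0.05. Of 20 aminoacyl-tRNA synthetases 15 fell and none rose (median -0.42), with CARS1 at -0.99 ± 0.05, WARS1 at -0.88 ± 0.08, GARS1 at -0.78 ± 0.05 and IARS1 at -0.69 ± 0.05.

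Promoters of this group can carry a composite C/EBP and ATF site, searched here as TGATGNAA on both strands. It was present for 5 of 17 stress response genes and 3 of 16 synthetase genes with a window, and for 1 of 17 transporter genes and 1 of 8 serine and one-carbon genes, against 3.14% of all windows and 2.15% of tested genes. Sites of 4 named genes are shown with the match in capitals: SLC1A5 at chr19:46784893-46784922 (minus strand), GARS1 at chr7:30594834-30594863 (plus strand), IARS1 at chr9:92293698-92293727 (minus strand) and CEBPG at chr19:33374060-33374089 (plus strand).
SLC1A5: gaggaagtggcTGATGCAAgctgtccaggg
GARS1: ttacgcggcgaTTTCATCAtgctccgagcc
IARS1: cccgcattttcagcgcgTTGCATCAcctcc
CEBPG: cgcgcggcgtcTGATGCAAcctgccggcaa

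Growth and metabolic genes were lower by smaller amounts. Of 30 ribosome biogenesis factors 22 fell and none rose (median -0.31), among them the nucleolar protein NOLC1 (-0.50 ± 0.06) and MYBBP1A (-0.67 ± 0.09). The count was 13 without the clone block. For bexobrutideg over DMSO 5 of the 30 fell (median -0.03), and 12 of the 30 had a lower change in the zelebrudomide comparison by the test of that difference. Of 25 genes of cholesterol and fatty acid synthesis 20 fell and none rose (median -0.30), with MVD, an enzyme of the mevalonate pathway, at -0.53 ± 0.06, and 10 fell without the block. Against DMSO, pomalidomide raised 19 of the 25 and lowered 0 (median 0.26). Zelebrudomide raised 4 and lowered 4 against DMSO (median -0.04). Over all genes tested, pomalidomide raised 14.4% and lowered 13.2% against DMSO, and zelebrudomide raised 12.9% and lowered 13.3%. Of 30 glycolysis and hypoxia genes 19 fell and 2 rose (median -0.24), with the hexokinase HK2 at -0.92 ± 0.08 and ENO1 at -0.39 ± 0.04. The split was 11 and 2 without the block. Of 28 proliferation genes 13 fell and none rose (median -0.23, 7 without the block), with TYMS, which makes thymidylate, at -0.62 ± 0.06 and the ribonucleotide reductase subunit RRM2 at -0.64 ± 0.09. In bulk RNA, fewer cells of a cell cycle phase and less RNA per cell cannot be told apart.

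Among 23 genes of endoplasmic reticulum folding and the unfolded protein response, 12 fell and 3 rose (median -0.18). HERPUD1, which serves degradation at that membrane, changed by -1.05 ± 0.04, EDEM1 by -0.90 ± 0.06 and the chaperone HSPA5 by -0.48 ± 0.04. Antigen presentation genes of class II fell for 8 of 16 and rose for 2 (median -0.15). Without the block 2 fell and 1 rose, and HLA-DRB1 (-0.35 ± 0.06) was among the calls that ended (adjusted p = 0.242).

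**Figure D2:**
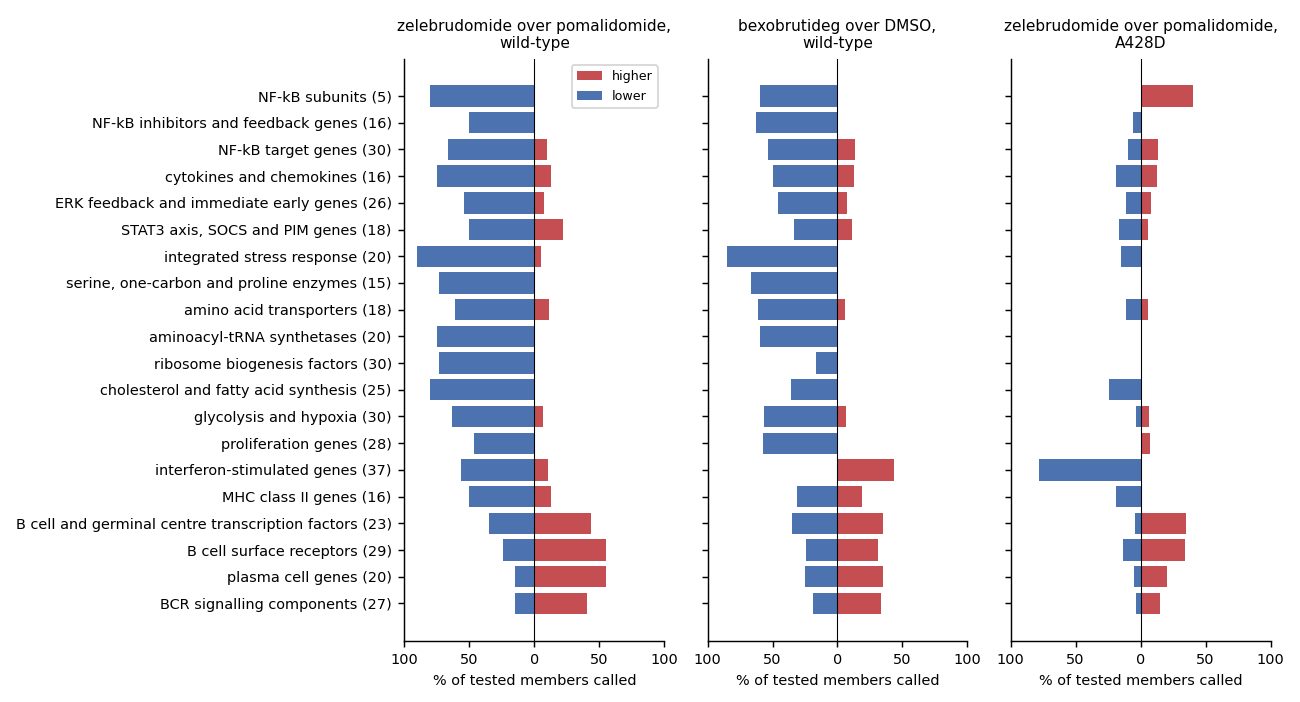
Share of the tested members of 20 gene lists (number tested in parentheses) called higher (red, to the right) or lower (blue, to the left), for zelebrudomide over pomalidomide in wild-type clones, bexobrutideg over DMSO in wild-type clones, and zelebrudomide over pomalidomide in A428D clones. In A428D clones 3 of 20 stress response genes and no synthetase gene were lower, against 18 of 20 and 15 of 20 in wild-type clones, whereas 29 of 37 interferon-stimulated genes were lower in A428D clones.

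B cell identity genes included many that were higher with zelebrudomide than with pomalidomide, but not all. Of 12 B lineage markers 10 rose and 2 fell (median 0.27). The 2 that fell, named after their values were seen, were the transcription factors PAX5 and EBF1. On library totals PAX5 had 334 to 382 CPM under zelebrudomide and 391 to 466 CPM under pomalidomide. EBF1 had 72.9 to 86.5 CPM and 96.1 to 117 CPM. Of 29 B cell surface receptor genes 16 rose and 7 fell (median 0.29), and of 20 plasma cell genes 11 rose and 3 fell (median 0.29, 6 and 2 without the block). Against DMSO, zelebrudomide raised 9 and lowered 13 of the 29 receptor genes, and pomalidomide raised 7 and lowered 12. For the 20 plasma cell genes zelebrudomide raised 8 and lowered 5 against DMSO, and pomalidomide raised 3 and lowered 9. Over all genes tested, zelebrudomide raised 12.9% and lowered 13.3% against DMSO, and pomalidomide raised 14.4% and lowered 13.2%. CD37, a tetraspanin of mature B cells, changed by 0.73 ± 0.04, FCRL2, an Fc receptor-like protein, by 0.77 ± 0.06 and VPREB3, a B cell chaperone-like protein, by 1.70 ± 0.15, whereas the costimulatory receptor CD40 changed by -0.74 ± 0.06. JCHAIN, which joins polymeric immunoglobulin, rose by 1.47 ± 0.09, DERL3, of endoplasmic reticulum degradation, by 0.85 ± 0.08 and MZB1, an immunoglobulin chaperone, by 0.57 ± 0.05. Of 27 B cell receptor signalling components 11 rose and 4 fell (median 0.10), and 6 and 2 in a fit of 88 libraries. CD79B, the receptor's signalling chain, rose by 0.35 ± 0.04 and the adaptor BANK1 by 0.67 ± 0.06. The CD79B call ended in the fit of 88 libraries (adjusted p = 0.0694). The phosphatase PTPN6 changed by -0.99 ± 0.07 and the kinase LYN by -0.34 ± 0.04.

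Of 23 B cell transcription factors 10 rose and 8 fell (median 0.13). IRF8 (chromosome 16, 85898803 to 85922609), a factor of germinal centre B cells, had 33.9, 29.6, 37.7, 26.6 and 33.1 CPM under zelebrudomide, against 12.7, 11.4, 12.2, 11.7 and 11 CPM under pomalidomide. The groups did not overlap (1.44 ± 0.09, adjusted p = 2.28e-17), and both lay below the 46.7 to 57.7 CPM of the DMSO libraries. BCL11A rose by 0.62 ± 0.04 and the coactivator POU2AF1 by 0.61 ± 0.05.

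In the BCL2 family 3 of 14 tested genes rose and 4 fell (median -0.11). HRK, which encodes a pro-apoptotic BH3-only protein, had 26, 19.9, 20.7, 30.9 and 29.4 CPM under zelebrudomide, against 7.06, 5.79, 5.56, 12.7 and 7.26 CPM under pomalidomide (1.73 ± 0.10, adjusted p = 1.38e-18). The DMSO libraries, at 22.3 to 36.1 CPM, lay near the zelebrudomide libraries. BCL2L11, encoding the BH3-only protein BIM, rose by 0.33 ± 0.04, while PMAIP1, encoding NOXA, changed by -0.77 ± 0.07 and BID by -0.65 ± 0.06.

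The remaining lists had fewer calls or a mixed direction. Of 13 checkpoint and costimulatory genes 7 fell and 1 rose (median -0.31), with the ligand genes CD80 at -1.07 ± 0.12 and CD274 at -0.93 ± 0.13 and the receptor gene PDCD1 at -1.69 ± 0.20. Of 19 homing receptor genes 6 fell and 3 rose, and 4 fell and 1 rose without the block. The follicle-homing receptor CXCR5 changed by -1.09 ± 0.08 and the integrin ITGA4 by -0.83 ± 0.06, while S1PR2, a receptor that confines germinal centre B cells, rose by 0.84 ± 0.08. Of 22 FOXO factors and targets 7 rose and 2 fell (median 0.11), with FOXO1 at 0.51 ± 0.07. Of 14 G1 regulators 4 rose and 6 fell, with the growth inhibitor BTG2 at 0.62 ± 0.04 and the kinase CDK6 at -0.65 ± 0.07.

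Among 24 genes of the cereblon ligase and its neosubstrates 2 rose and 3 fell, with GSPT1, a translation termination factor, at -0.31 ± 0.05. On library totals alone 2 rose and 7 fell. Of 20 p53 target genes 2 rose and 5 fell, and of 18 class I presentation genes 2 rose and 5 fell (median -0.05). In the class I list NLRC5, its transcriptional activator, rose by 0.90 ± 0.09. On library totals alone 2 of that list rose and 11 fell, and without the block 1 rose and 2 fell. Of 16 genes of the TLR and MYD88 pathway 1 rose and 4 fell, with TLR9 at 0.56 ± 0.07 and TLR7 at -0.52 ± 0.07, both sensors of nucleic acids. The split was 1 and 2 without the block, in DESeq2 and in a fit of 88 libraries. In the MYC and MAX network 1 of 10 rose and 1, MYC itself, fell. The gene that rose, MXD4, a repressor that competes with MYC for MAX, lost its call in the fit of 88 libraries (0.35 ± 0.10 in the fit of 20, adjusted p = 0.0562 in that of 88). Of 6 metallothionein and zinc genes 2 rose and 2 fell, with the metal-binding MT2A at -0.59 ± 0.06. Without the block 1 fell and none rose.

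The largest increases among genes of at least 5 CPM that rose in 5 of 5 clones were those of ABLIM1 (2.86 ± 0.20), TAS1R3 (2.71 ± 0.19), ZNF385B (2.24 ± 0.12), GNB3 (2.17 ± 0.11), OSR2 (2.07 ± 0.14), MLC1 (1.98 ± 0.13) and SSPN (1.96 ± 0.12). GNB3, a G protein beta subunit, had 17.1, 15.1, 22.9, 30.9 and 28.1 CPM under zelebrudomide, against 3.84, 3.09, 3.55, 7.82 and 6.86 CPM under pomalidomide, and 12.7 to 35.8 CPM under bexobrutideg against 2.82 to 11.2 CPM under DMSO. MLC1, a membrane protein, had 12.7, 11.5, 11.5, 19 and 16.5 CPM under zelebrudomide, against 2.85, 4.63, 3.55, 4.05 and 2.96 CPM under pomalidomide, with at most 18.7 CPM under bexobrutideg and 11.6 to 18.8 CPM under DMSO. GNB3 was thus high under both BTK degraders, and MLC1 was low under pomalidomide alone among the 4 treatments. Zelebrudomide over DMSO gave -0.04 for ABLIM1, 1.29 for TAS1R3, 0.05 for ZNF385B, -0.50 for OSR2 and -0.45 for SSPN. Pomalidomide over DMSO gave -2.90, -1.42, -2.18, -2.57 and -2.41 for the same genes. Besides the cytokines, the largest decreases were those of PTGIR, a prostacyclin receptor (-2.83 ± 0.23), IL4I1, an amino acid oxidase (-2.74 ± 0.26), A2M, a protease inhibitor (-2.55 ± 0.23), the integrin ITGAX (-2.44 ± 0.19), BSPRY (-2.40 ± 0.15), the integrin ITGA1 (-2.23 ± 0.23) and the checkpoint receptor LAG3 (-2.23 ± 0.21). Pomalidomide over DMSO gave 3.46, 1.99, 5.43, 2.49, 2.60, 1.67 and 2.45 in that order. Zelebrudomide over DMSO gave 0.62, -0.75, 2.88, 0.05, 0.20, -0.57 and 0.22, of which only the increase of A2M was called. A2M had 0 to 0.257 CPM under DMSO and 0.262 to 1.86 CPM under zelebrudomide. PTGIR had 0.296 to 1.1 CPM and LAG3 0.642 to 1.3 CPM under DMSO. Their changes over DMSO thus rest on few reads.

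Interferon-stimulated genes were lower with zelebrudomide than with pomalidomide, although they were not lowered by bexobrutideg. Of 45 listed genes 37 were tested, of which 21 fell and 4 rose (median -0.29). IFIT3, an antiviral effector, had 2.19, 1.84, 3.34, 2.49 and 2.67 CPM under zelebrudomide, against 13.7, 8.49, 10.5, 8.9 and 12.4 CPM under pomalidomide, and 0.474 to 1.15 CPM under DMSO. Both treated groups lay above DMSO, and the pomalidomide group lay highest (-2.09 ± 0.17, adjusted p = 1.44e-13). The membrane protein IFITM3 changed by -1.95 ± 0.20 and XAF1 by -0.95 ± 0.10. For bexobrutideg over DMSO 16 of the 37 rose and none fell (median 0.31), and 26 of the 37 had a lower change in the zelebrudomide comparison by the test of that difference.

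The interferon-stimulated response element, searched on both strands as 2 copies of GAAA with any 2 bases between them, was present for 18 of 30 of these genes with a window, against 3.02% of all windows and 3.56% of tested genes. One match each is shown for the 3 genes of the list with the lowest p: IFIT3 at chr10:89327865-89327894 (plus strand), IFI27 at chr14:94110631-94110660 (plus strand) and IFITM3 at chr11:320876-320905 (minus strand).
IFIT3: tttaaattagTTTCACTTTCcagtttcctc
IFI27: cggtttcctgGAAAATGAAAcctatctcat
IFITM3: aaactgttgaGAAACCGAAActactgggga

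How far the comparison follows BTK was read against bexobrutideg over DMSO, in which 2857 of 13981 genes were called (20.4%), 1401 higher (10%) and 1456 lower (10.4%). Without the block that count was 1314, and on library totals alone the split was 942 higher and 1895 lower. Of the genes called in the zelebrudomide comparison 41.9% were also called there, and of those called there 58.4% were called here. The 1669 shared genes had the same direction in 1596 and the opposite in 73. Across all 13981 genes the 2 log2 fold changes had Pearson's r = 0.55, a description only, since genes are not independent and the clones are the same.

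The difference between the 2 comparisons, tested directly, passed for 959 genes (6.86%), 436 with a higher change in the zelebrudomide comparison (3.12%) and 523 with a lower one (3.74%). The count was 234 without the clone block, 637 without clone 2 and 589 without clone 5. The genes with the lowest p were IGLC7, RASSF4, IRF8, DNASE1L3, SH3TC1 and MLC1. RASSF4, which encodes a Ras association domain protein, had 28.2, 36.3, 34.2, 28.6 and 32.7 CPM under zelebrudomide, against 114, 115, 110, 103 and 99.1 CPM under pomalidomide. It had 12.2 to 19.3 CPM under bexobrutideg and 12.2 to 18.1 CPM under DMSO. It thus stood above DMSO under both zelebrudomide and pomalidomide, and further under pomalidomide (difference of the 2 changes -1.89 ± 0.12, adjusted p = 6.67e-16). The light chain segment IGLC7 (-1.78 ± 0.10), whose near-identical neighbours make its counts uncertain, and DNASE1L3, a secreted nuclease (-1.54 ± 0.13), showed the same order of groups.

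**Figure D3:**
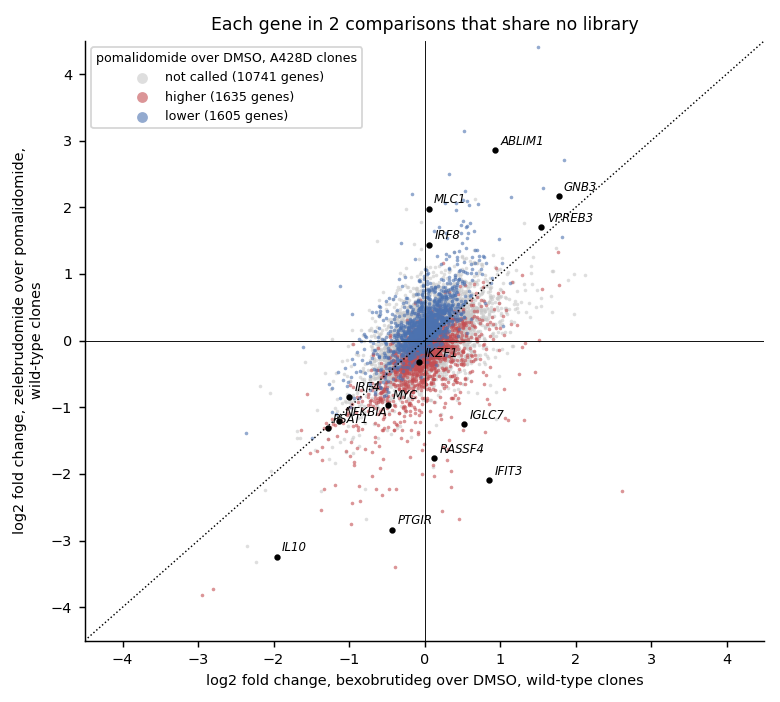
Log2 fold change of each of 13981 genes for zelebrudomide over pomalidomide (vertical axis) against that for bexobrutideg over DMSO (horizontal axis), both in wild-type clones; colour gives the call for pomalidomide over DMSO in A428D clones, and the dotted line marks equal changes. IRF4, NFKBIA, PSAT1, GNB3 and VPREB3 lie near the line, while RASSF4, IGLC7 and IFIT3 lie well below it and IRF8 and MLC1 above it.

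A readout of pomalidomide that shares no library with the comparison came from the A428D clones, where pomalidomide over DMSO called 3352 of 14616 genes (22.9%), 1698 higher (11.6%) and 1654 lower (11.3%). Of 1096 genes that were raised there and not called with bexobrutideg, 46.5% were lower with zelebrudomide than with pomalidomide in wild-type clones and 2.55% higher. Of 1058 genes that were lowered there and not called with bexobrutideg, 37.3% were higher with zelebrudomide and 1.7% lower. Where neither readout was called (8970 genes), 8.03% were higher and 7.16% lower. The calls were thus not confined to genes called with bexobrutideg. Dose and compound cannot be told apart, and their part in these shares was not tested.

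Of 892 genes lowered by bexobrutideg and not called with pomalidomide in A428D clones, 55.7% were lower with zelebrudomide and 0.224% higher. Of 879 genes raised by bexobrutideg and not called with pomalidomide, 46.4% were higher and 0.796% lower. Genes whose 2 readouts were opposite in sign were called most often. Of 288 genes that bexobrutideg lowered and pomalidomide raised, 93.4% were lower. Of 271 genes that bexobrutideg raised and pomalidomide lowered, 92.6% were higher. Of 251 genes raised in both readouts 32.7% were higher and 15.5% lower, and of 276 lowered in both 9.06% were higher and 32.2% lower.

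**Figure D4:**
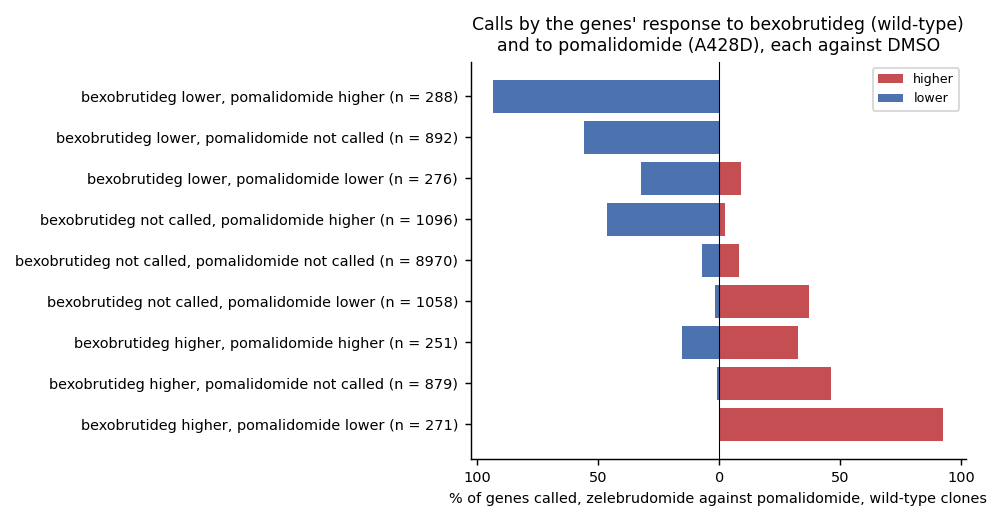
Share of genes called higher (red, to the right) or lower (blue, to the left) for zelebrudomide over pomalidomide in wild-type clones, for 9 classes of genes defined by their calls for bexobrutideg over DMSO in wild-type clones and pomalidomide over DMSO in A428D clones. The shares were highest, at 93.4% lower and 92.6% higher, where the 2 readouts were opposite in sign (0% in the other direction for both).

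Single readout genes, named as those with the lowest p in the outside libraries, showed both patterns. Of the 12 from bexobrutideg over DMSO, ATF4, CARS1 and TFRC, the transferrin receptor, gave -0.96 ± 0.05, -0.99 ± 0.05 and -1.09 ± 0.05 for zelebrudomide over pomalidomide, beside -0.96 ± 0.05, -0.99 ± 0.05 and -1.01 ± 0.05 for bexobrutideg over DMSO. BATF, another of the 12, gave -1.34 ± 0.05 beside -0.89 ± 0.05. The difference between its 2 changes passed the test (-0.46 ± 0.07, adjusted p = 1.08e-05). Of the 12 from pomalidomide over DMSO in A428D clones, the cyclin gene CCND2 gave -0.35 ± 0.04, RAB13, a small GTPase, -0.58 ± 0.06 and the inhibitory receptor LILRB4 -0.64 ± 0.04. SERPINB9, an inhibitor of granzyme B, which pomalidomide lowered, gave 0.44 ± 0.07, a call that ended without the block (adjusted p = 0.127). DAPK2, a kinase gene raised in the A428D readout by 1.57, was an exception and was higher with zelebrudomide (0.36 ± 0.06), as it was with bexobrutideg over DMSO (0.89).

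In A428D clones the decreases of IRF4, MYC, NF-kB and stress response genes were mostly not called, while those of interferon-stimulated genes were. There zelebrudomide against pomalidomide called 1008 of 14616 genes (6.9%), 470 higher (3.22%) and 538 lower (3.68%). The genotype difference itself, wild-type minus A428D change in a fit of 44 libraries, passed for 1777 of 14616 genes (12.2%), 724 with a higher change in wild-type clones (4.95%) and 1053 with a lower one (7.2%). That count was 179 without the clone block, and on library totals alone the split was 463 and 1635.

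IRF4 had 385 ± 92.8 CPM under zelebrudomide and 320 ± 77.6 CPM under pomalidomide in A428D clones (SD, n = 6), a change of 0.27 ± 0.04 that was opposite in sign to that in wild-type clones (genotype difference -1.10 ± 0.07, adjusted p = 4.58e-20). NFKBIA gave 0.10 ± 0.06 in A428D clones (adjusted p = 0.416; genotype difference -1.31 ± 0.09), MYC -0.08 ± 0.05 (adjusted p = 0.429; genotype difference -0.88 ± 0.08) and PSAT1 -0.02 ± 0.06 (adjusted p = 0.935; genotype difference -1.30 ± 0.09). Of the integrated stress response genes 3 of 20 were lower in A428D clones and 15 differed between genotypes, and of the 30 NF-kB targets 4 were higher and 3 lower and 20 differed. Of the 5 NF-kB subunit genes 2 were higher in A428D clones, RELB (0.22 ± 0.05) and NFKB1 (0.21 ± 0.06), and none was lower.

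Interferon-stimulated genes kept their direction: 29 of 37 were lower and none higher in A428D clones (median -0.56), and 12 differed between genotypes. IFIT3 gave -1.88 ± 0.15 there, and its genotype difference did not pass (-0.20 ± 0.27, adjusted p = 0.713). RASSF4 gave -1.02 ± 0.06, IKZF1 -0.19 ± 0.04 and IRF8 0.91 ± 0.10 in A428D clones. For RASSF4 and IRF8 the change was smaller there than in wild-type clones (genotype difference -0.75 ± 0.09 and 0.53 ± 0.15), and for IKZF1 the difference did not pass (-0.13 ± 0.06, adjusted p = 0.148).

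**Figure D5:**
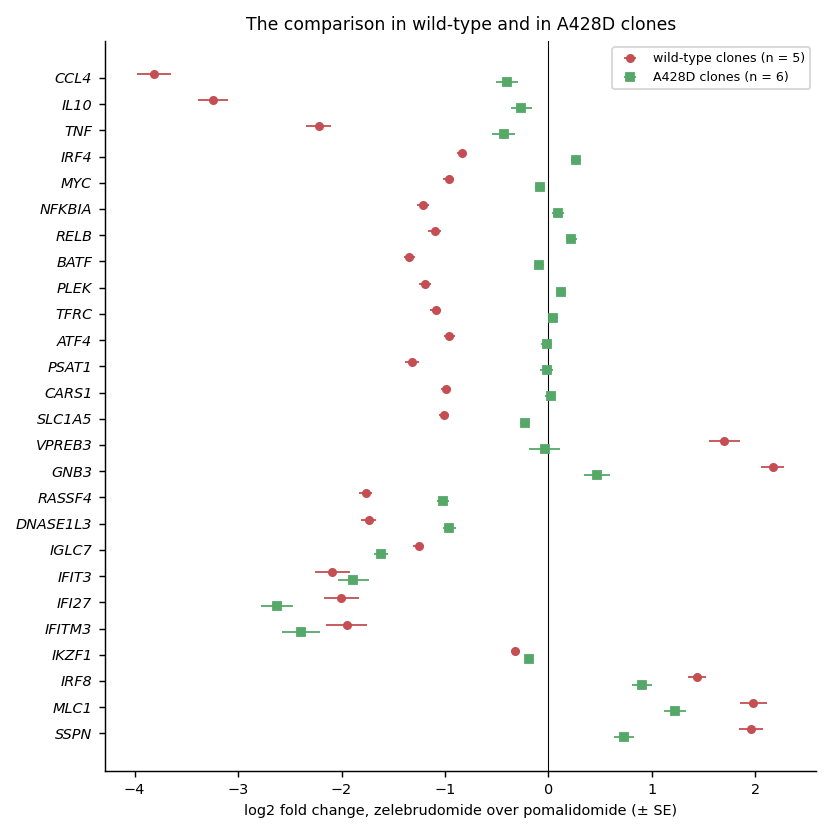
Log2 fold change ± SE of zelebrudomide over pomalidomide (horizontal axis) for 26 named genes in wild-type clones (circles, n = 5, fit of 20 libraries) and A428D clones (squares, n = 6, fit of 44 libraries). From IRF4 to CARS1 every wild-type value lies below -0.8 and the A428D values lie between -0.09 and 0.27, while RASSF4, IGLC7, IFIT3, IFI27 and IFITM3 lie below -1 in both. CCL4, TNF and SLC1A5 were also called lower in A428D clones (-0.40, -0.43 and -0.23), whereas IL10 was not called there (-0.26).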

How the data were processed

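Poly(A) RNA from cultures of TMD8 clones was sequenced at transcript 3′ ends, per the labels' protocols. Tools listed in the submitters' processing notes, without role or order, include STAR 2.7.11, fastp 0.24.0, featureCounts and Subread 2.1.1. The listed builds are hg38 and GRCh38. The values that the authors deposited are estimated counts without normalisation for 78894 genes (8.75% of values not whole) in 100 libraries. The annotation, the strand setting and any removal of duplicates are not given in the sources used here, so that overlapping genes and near-identical copies have uncertain counts, and counting precision covers read sampling only. Positions are from GENCODE 29 on GRCh38.

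Counts were rounded (total changed by -0.00678%), and 92 spike-in entries were left out. The 20 wild-type libraries under zelebrudomide, pomalidomide, bexobrutideg and DMSO were fitted together with edgeR 4.0.16 in R 4.3.3 (quasi-likelihood test, robust, TMM scaling, minimum count 10 and minimum total 15), with clone as a block. The genotype fit added the A428D clones (44 libraries). CPM of single genes are on library sizes scaled by TMM, in the fit of 20 libraries for wild-type and of 44 for A428D clones. Marker sums, and the PAX5 and EBF1 levels, are on library totals. DESeq2 1.42.0 was an alternative. Same-numbered zelebrudomide and pomalidomide libraries come from the same single-cell clone, and their deviations correlated at 0.28 to 0.48 over the 500 most variable genes, against at most 0.05 with other clones. No 2 libraries of a group agreed within sampling noise (lowest chi-square per degree of freedom 1.76).

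The comparison, the gene lists and the named genes were chosen with earlier results of these data known. Genes were named by rule: 9 core genes, the 12 largest changes in each direction, up to 4 lowest p in each of 37 lists, and the lowest p of the difference tests (6 each) and of 2 outside readouts (12 each). Exceptions are marked. No exact test on single values was needed, as all p-values come from fits across all genes.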

Additional observations from a re-analysis of the deposited data

Results flagged for a closer look

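In a single clone each, 2 genes stood apart from the other clones in the log2 difference of CPM, zelebrudomide minus pomalidomide. BTK gave -0.04 in clone 3, against 0.15 to 0.22 in the others, and ABLIM1 gave 3.57 in clone 1, against 2.15 to 2.36 in the others. The check was made for 33 genes, of which chance sets apart about 1 in 20.

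The change differed between genotypes, by the test of the difference itself, for 35 of 42 genes checked, given here as wild-type minus A428D log2 change. It was more negative in wild-type clones for IRF4 (-1.10), MYC (-0.88), BCL2 (-0.45), NFKBIA (-1.31), CCL4 (-3.41), CCL4L2 (-3.61), IL10 (-2.98), PTGIR (-2.27), IL4I1 (-2.28), ITGAX (-1.58), BSPRY (-2.01), ITGA1 (-2.50), LAG3 (-1.58), TNF (-1.79), IL6 (-1.98), RELB (-1.32), PLEK (-1.32), BATF (-1.25), RASSF4 (-0.75), DNASE1L3 (-0.78) and TFRC (-1.14). It was more positive for ABLIM1 (2.00), TAS1R3 (2.12), ZNF385B (1.29), GNB3 (1.70), OSR2 (1.20), MLC1 (0.76), SSPN (1.23), HRK (1.14), VPREB3 (1.74), LRRN3 (1.08), ARPP21 (0.97), CPNE5 (0.78), IRF8 (0.53) and IGLC7 (0.37). Most of these genes were named for the size of their change in wild-type clones or for the lowest p of a difference test on these libraries. The share of 35 of 42 is raised by that choice and says nothing of genes at large, of which 12.2% passed. The causes were not tested.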

How the results depend on the processing

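Of 1944 values of named genes under other settings 1893 kept their direction and side of the threshold, 50 lost the call, 1 gained it and none turned round. The calls were lost in 26 genes, 20 of them without the clone block. Without the replicate block, 2412 genes were called for zelebrudomide against pomalidomide, 1314 for bexobrutideg against DMSO, 2444 for pomalidomide against DMSO (3869 with it), 2178 for zelebrudomide against DMSO (3667 with it), 234 for the difference of differences and 179 for the genotype difference. DESeq2 called 1840 for bexobrutideg against DMSO and 562 for the difference of differences. A fit of all 88 libraries at 24 h called 1583 for bexobrutideg against DMSO, 2419 for zelebrudomide against DMSO, 389 for the difference of differences and 848 for the genotype difference. Leaving out 1 clone at a time gave 3218 to 3645 for zelebrudomide against pomalidomide and 589 to 809 for the difference of differences. The cause of these shifts was not tested. On library totals alone, the median over all genes moved by less than 0.1 (log2), and zelebrudomide against DMSO had 1142 higher and 3194 lower (1807 and 1860 with TMM). Depth, at 6006511 to 7961694 counts a library in the zelebrudomide and pomalidomide groups, limits genes of few CPM, and counts do not show protein.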
